A study of Mus musculus with 10 samples.

Results

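Genes with the stems Tex, Spata, Spag, Tssk and Tsga were named for expression in the testis, and together with Tsnaxip1 they were followed through lists of transcription start sites (TSSs) occupied by ARID2. Members were the mouse protein-coding genes whose symbol begins with Tex, Spata, Spag or Tssk and a number, or with Tsga, plus Tsnaxip1, with Spag5 and Spata22 left out. The rule gave 90 of 21774 protein-coding genes, of which 39 were Tex genes, 29 Spata genes, 11 Spag genes, 6 Tssk genes and 5 Tsga genes or Tsnaxip1.

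ARID2 is a subunit that defines PBAF, a chromatin remodeling complex driven by the ATPase BRG1, and CUT&RUN maps a protein by sequencing the fragments that an antibody-tethered nuclease releases around it. The cells were spermatogenic cells of CD1 mice in which WIN 18,446, an inhibitor of retinoic acid (RA) synthesis, was given from P1 to P10 and 1 dose of RA at P11, so that germ cells advanced together. Testes were taken at P28, 17 days after RA, and at P28.5, 17.5 days after RA, when they are enriched in late prophase-I and metaphase-I spermatocytes. At each age there were 2 ARID2 libraries, 2 BRG1 libraries made with different antibodies and 1 control without primary antibody. No group carried a mutation, and cells were not sorted by type, so the lists describe a mixture of germ cell stages. The deposited lists hold the TSSs of the ARID2-enriched k-means cluster (cluster-1), built from the average of the replicates, and for each TSS they name a gene and its genomic position. They give no signal, strand or depth, so the replicates could not be compared and no test was made.

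The members serve stages of germ cell life that follow one another. Tex11, Tex12 and Tex15 act in meiotic recombination and synapsis or in the silencing of transposons, and Tex14 keeps open the bridges that join sister germ cells. Spag6l, Spag16 and Spag17 build the central apparatus of the sperm axoneme, while Tssk kinases, Spata16 and Spag4 act in spermatids. Several others, such as Spata5 and Spata5l1, carry a testis name but function in many cell types.

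A gene was counted as listed where its symbol stood in a list. At P28, 12 of 90 members were listed, 13.3% (95% Wilson interval 7.79 to 21.9), beside 16.8% of all protein-coding genes. By P28.5 the count was 6 of 90, 6.67% (3.09 to 13.8), beside 11.6% of all genes. In both lists there were 5 members, 5.56% (2.4 to 12.4), beside 8.48% of all genes. These 5 were Spata5, Spata6, Tsnaxip1, Spag7 and Tex14. Listed at P28 alone were 7 members (Spag16, Spata1, Spata17, Spata24, Spata31d1c, Spata5l1 and Tex101), where 8.33% of all genes were. Spata33 was the 1 member listed at P28.5 alone, where 3.13% of all genes were. Shared names made up 41.7% of the members in the P28 list and 83.3% of those in the later one, and over all genes these shares were 50.5% and 73.1%. The intervals cover counting error alone, and genes are not replicates of the experiment. At P28 and at both ages the interval of the members held the share of all genes, and at P28.5 it did so too.

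By family, 7 of 29 Spata genes were listed at P28 (24.1%, 12.2 to 42.1) and 3 at P28.5 (10.3%, 3.58 to 26.4). The Tex genes gave 2 of 39 at P28 (5.13%, 1.42 to 16.9), namely Tex14 and Tex101, and 1 at P28.5 (2.56%, 0.454 to 13.2), which was Tex14. At P28 the rows of both Tex genes lay 15646 bp or more from any 5′ end of the gene named. Among the Spata genes, the rows of Spata1 and Spata24 lay 19274 and 8917 bp from theirs. Of the 11 Spag genes, Spag7 and Spag16 were listed at P28 and Spag7 at P28.5. Tsnaxip1, on the plus strand, was listed at both ages, and none of the Tsga genes, all on the minus strand, was listed at either. No Tssk gene was listed at either age, and 0 of 6 allows a share of up to 50.0% at a limit of 3 counts, while its Wilson interval reaches 39.0%. The intervals of the families overlapped one another, as the plot of shares by family shows. The families differ in strand and in genes on X, and these shares were not adjusted for either. At P28, 26.0% of all plus-strand and 7.61% of all minus-strand genes were listed, and no protein-coding gene on X was. All members on X except Tsga8 are Tex genes.

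**Figure D1:**
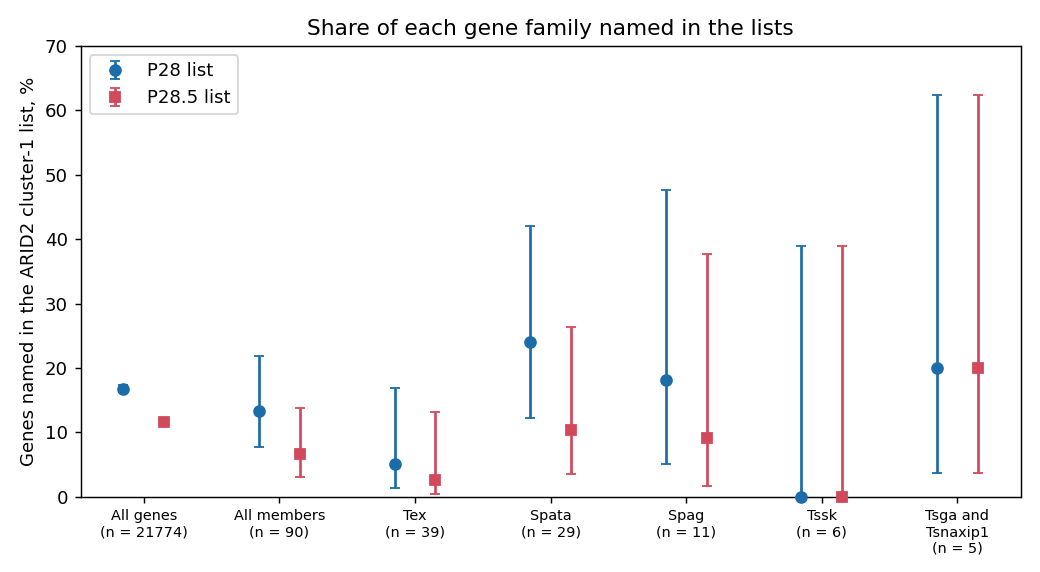
Share of genes named in the ARID2 cluster-1 list (y axis, percent) for all protein-coding genes, all members and each family (x axis), with 95% Wilson intervals as bars, circles for P28 and squares for P28.5. Spata genes stood at 24.1% and 10.3%, Tex genes at 5.13% and 2.56% and Tssk genes at 0.0% at both ages, with wide intervals that overlap.

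The lists treated the strands unequally. Of the 11553 rows at P28, 4893 matched a RefSeq 5′ end on the plus strand, whereas 9 matched a 5′ end on the minus strand and 1482 a minus-strand 3′ end. In the 8514 rows at P28.5 these counts were 4361, 8 and 122. Rows exactly on a minus-strand start were thus nearly absent from both lists, and a minus-strand member that is not listed tells little. Many other rows equalled none of these ends. A listed position lay within 2000 bp of a 5′ end for 1045 of 10903 minus-strand genes at P28 and 940 at P28.5. For the 10871 plus-strand genes these counts were 2714 and 2273. Among the 48 plus-strand members, 7 were listed at P28 (14.6%, 7.25 to 27.2) and 5 at P28.5 (10.4%, 4.53 to 22.2), while 26.0% and 20.4% of all plus-strand genes were. Among the 42 minus-strand members, 5 were listed at P28 (11.9%, 5.19 to 25.0) and 1 at P28.5 (2.38%, 0.422 to 12.3), beside 7.61% and 2.86% of all minus-strand genes. Each of these intervals held the share of all genes of its strand.

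Spata6, whose protein is needed for the connecting piece that joins sperm head and tail, had the same 4 rows at both ages. They fell on chr4 at 111719949, 111719950 and 111720010, which is 2 bp and 1 bp upstream of its nearest 5′ end and exactly on another of its 3 annotated 5′ ends. Tsnaxip1, which encodes a partner of the translin-associated factor TRAX, had 3 rows at both ages, at 105827697 and 105827744 on chr8, 14 bp upstream of one 5′ end and on the next. Its start lies within the gene Ranbp10, which runs on the other strand and whose nearest 5′ end was 489 bp from the first of these positions. Spata5, which encodes an AAA ATPase of ribosome maturation, had 5 rows at both ages, at 37419950, 37420281 and 37420311 on chr3, and none lay more than 8 bp from one of its 4 annotated 5′ ends. In these 3 plus-strand genes the listed positions and their row counts were identical at P28 and P28.5.

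The sequence just upstream of the outermost 5′ end is given for the listed members with own-start positions that had room there. RefSeq windows of GRCm38.p6, the assembly behind mm10, were used, up to 200 bases or to the first exon of another protein-coding gene, 5′ to 3′ on the strand of the gene. Capitals mark CpG dinucleotides. Spata6 is chr4:111719760-111719950 on the plus strand and Tsnaxip1 is chr8:105827511-105827710 on the plus strand. At Spata5 the base upstream of its outermost 5′ end already belonged to an exon of Nudt6.
Spata6: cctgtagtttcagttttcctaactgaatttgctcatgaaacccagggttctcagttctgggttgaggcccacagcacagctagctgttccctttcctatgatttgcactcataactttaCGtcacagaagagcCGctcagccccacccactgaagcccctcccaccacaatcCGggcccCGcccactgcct
Tsnaxip1: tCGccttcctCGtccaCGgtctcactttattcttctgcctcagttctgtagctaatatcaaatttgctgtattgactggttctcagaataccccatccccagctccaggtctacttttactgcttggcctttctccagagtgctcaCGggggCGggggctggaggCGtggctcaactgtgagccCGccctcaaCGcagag

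Spag7, on the minus strand of chr11, carried the largest number of rows of any member, 14 at each age, with 4 at 70669463 and 10 at 70669466. These positions lay 47 and 50 bp upstream of its single 5′ end, and they equalled the 3′ ends of 5 and 11 RefSeq transcripts of the minus-strand gene Camta2. No listed row equalled the 5′ end of Spag7 itself. The 46 bases between the 2 genes, chr11:70669417-70669462 on the minus strand, held 3 CpGs.
Spag7: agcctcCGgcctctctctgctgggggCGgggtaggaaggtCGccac

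Tex14 had 4 rows at P28 and 11 at P28.5. Those at P28 lay at 87443237, 87448627, 87462286 and 87471368 on chr11, all inside introns and 15646 bp or more from any Tex14 5′ end. Each of these equalled the 5′ end of a U3 small nucleolar RNA gene on the same strand, namely Rnu3b1, Rnu3b3, Rnu3b4 and Rnu3b2 in that order. U3 guides early cleavage of ribosomal RNA precursors in every cell type. The first 200 bases of the 4 copies were 100.0% identical to one another, so a read lying wholly inside them matches all 4 copies equally. At P28.5 the same 4 positions were listed again, with 7 further rows at 87405060, 87405061 and 87405065, at most 5 bp from the Tex14 5′ end at 87405065. Its own start was thus listed at P28.5 and not at P28, although its name was in both lists.

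**Figure D2:**
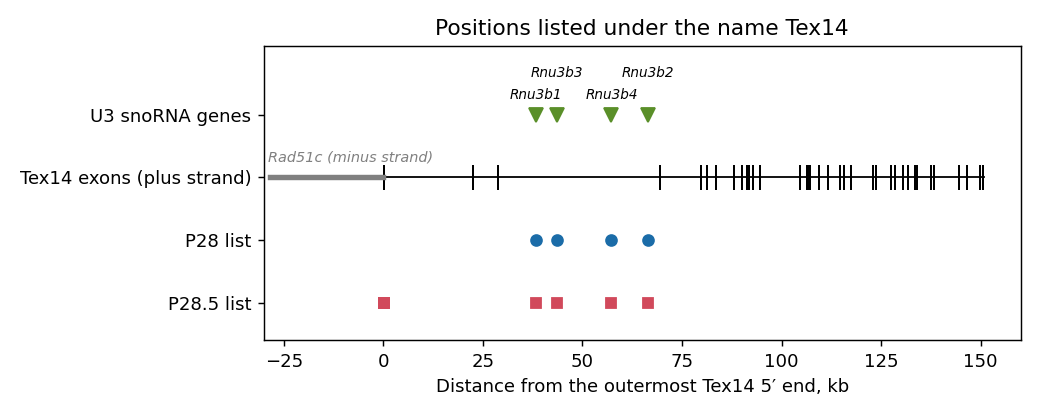
Positions listed under the name Tex14 (circles P28, squares P28.5) along its 150810 bp, with exons as ticks, the U3 genes Rnu3b1 to Rnu3b4 as triangles and the end of the minus-strand gene Rad51c in grey, against distance from the outermost 5′ end in kb. The 4 internal positions sit under the U3 genes at both ages, and a position at the start appears at P28.5.

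Tex14 starts 59 bp from the 5′ end of Rad51c, a recombination gene transcribed away from it, and Rad51c was named in neither list. Spata33, whose protein localizes calcineurin to sperm mitochondria, has a similar layout, with the 5′ end of Chmp1a 49 bp away on the other strand. Spata33 had 5 rows at P28.5, at 123212858 and 123212859 on chr8, 0 and 1 bp from a 5′ end, and none at P28, when the nearest listed position lay 110487 bp away under the name Rpl13. Chmp1a was listed at P28.5 as well. The bases between each pair of starts are chr11:87404955-87405012 for Tex14 and chr8:123212789-123212836 for Spata33, both on the plus strand, with 4 CpGs in 58 bases and 5 in 48 bases.
Tex14: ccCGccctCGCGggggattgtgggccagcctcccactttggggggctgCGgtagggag
Spata33: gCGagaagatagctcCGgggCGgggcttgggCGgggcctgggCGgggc

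The other members at P28 alone fell into genes listed at their own start and genes listed elsewhere. Spag16, a scaffold of the central apparatus, had 3 rows on its 5′ ends at 69826872 and 69826970 on chr1, and at P28.5 the nearest listed position of any gene was 2585455 bp away. Spata5l1, the partner ATPase of Spata5, had 1 row on its single 5′ end at 122630625 on chr2. Spata31d1c, of the Spata31 cluster on chr13, had 1 row on its single 5′ end at 65033058, and the other 4 Spata31 genes had none. Near-identical copies are known in that cluster, so the placement of reads there is uncertain. All 3 are plus-strand genes.
The bases upstream of these starts are chr1:69826720-69826871, chr2:122630425-122630624 and chr13:65032858-65033057, each on the plus strand, and they hold 3 CpGs in 152 bases, 10 in 200 and 0 in 200.
Spag16: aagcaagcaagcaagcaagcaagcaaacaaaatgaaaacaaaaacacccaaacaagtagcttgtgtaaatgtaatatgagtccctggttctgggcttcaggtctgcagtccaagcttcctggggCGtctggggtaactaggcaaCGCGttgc
Spata5l1: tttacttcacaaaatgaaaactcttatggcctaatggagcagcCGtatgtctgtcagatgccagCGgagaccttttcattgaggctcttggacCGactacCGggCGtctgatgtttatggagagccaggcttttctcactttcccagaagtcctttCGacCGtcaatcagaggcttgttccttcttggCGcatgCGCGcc
Spata31d1c: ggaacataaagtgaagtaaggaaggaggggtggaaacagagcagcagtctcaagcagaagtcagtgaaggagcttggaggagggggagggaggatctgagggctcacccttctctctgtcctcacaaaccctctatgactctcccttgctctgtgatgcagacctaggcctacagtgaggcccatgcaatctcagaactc

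The 4 minus-strand names at P28 alone were placed away from their own 5′ ends or at a shared one. Spata17 had 1 row at 187215393 on chr1, 53 bp downstream of its nearest 5′ end and 6 bp from the 5′ end of the plus-strand gene Gpatch2, which was itself listed at P28. Spata24 had 5 rows at 35671103 on chr18, 8917 bp upstream of its 5′ end, a position equal to the 3′ end of 5 transcripts of Dnajc18. Tex101, which encodes a surface protein of germ cells needed for fertile sperm, had 4 rows at 24687908 on chr7, 15858 bp upstream of its start, where the plus-strand gene Gm1096 begins. Spata1 had 1 row at 146480479 on chr3, in an intron 19274 bp from its nearest 5′ end, where no transcript of RefSeq or GENCODE vM21 ended. For Spata24, Tex101 and Spata1 the list therefore holds no position near the start of the gene it names.

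**Figure D3:**
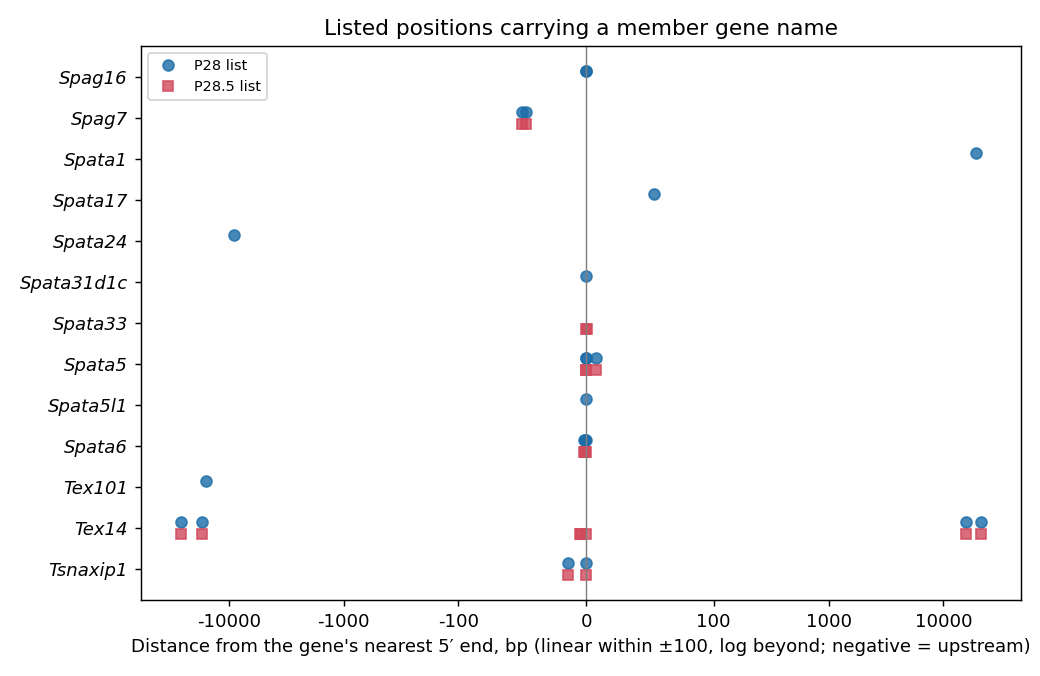
Listed positions that carry the name of a member (y axis, 13 genes) against their distance from the nearest 5′ end of that gene in bp (x axis, linear within 100 bp and logarithmic beyond, negative upstream), circles for P28 and squares for P28.5. Most lie within 100 bp, whereas those of Spata1, Spata24 and Tex101 and the internal positions of Tex14 lie 8917 to 26272 bp away.

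Counting by position in place of name changed which members were included. A listed position of any name lay within 2000 bp of a member's 5′ end for 8 of 90 members at P28 (8.89%, 4.57 to 16.6), beside 17.3% of all genes, and for 8 of 90 at P28.5, beside 14.8% of all genes. At both ages this held for 4 members (4.44%, 1.74 to 10.9), beside 10.9%. The fall from 12 to 6 by name between the ages was thus not seen by position. Spata1, Spata24, Tex101 and Tex14 dropped out at P28, and Tex15 and Tex38 came in at P28.5. By family, 0 of 39 Tex genes had such a position at P28 and 3 at P28.5, and of 29 Spata genes 5 and 3 did. Tex15 had 1 row at 33517444 on chr8 under the name Hmgb1-rs17, exactly on a Tex15 5′ end 755 bp inside its outermost one, and at P28 the nearest listed position was 161370 bp away. Tex38 came in through a row named Atpaf1 1813 bp upstream. At P28 the share of all genes, 17.3%, lay just above the interval of the members. It lay within the interval when the limit was 500 bp (8.89% of members, beside 16.2% of all genes) and when the position also had to carry the member's own name (8.89%, beside 13.7%). In the plus-strand members alone, 12.5% (5.86 to 24.7) had such a position at P28, beside 25.0% of all plus-strand genes, and 12.5% at P28.5, beside 20.9%. The share of all plus-strand genes lay above the interval at P28 and within it at P28.5.

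CpG content moved with listing. Observed over expected CpG was taken over 500 bp to each side of the outermost 5′ end of each gene, whichever end was listed. It had a median of 0.731 in the 13 members listed at either age and 0.283 in the 77 not listed, with 0.73 in all 4342 listed genes and 0.516 in all genes. The ranges overlapped, from 0.0 in Spata31d1c to 1.02 in Spata1 among listed members and from 0.0582 in Tex28 to 1.08 in Tex30 among the others. From the lowest to the highest CpG quintile of all genes, the members numbered 26, 18, 24, 13 and 9. In the highest quintile, 4 of 9 were listed at P28 (44.4%, 18.9 to 73.3), beside 28.8% of all genes there, and 1 of the 4 was Spata1, whose row lies 19274 bp from its start. At P28.5, 2 of 9 were (22.2%, 6.32 to 54.7), beside 27.0%. In the lowest quintile, 1 of 26 was listed at P28 (3.85%, 0.682 to 18.9), beside 6.54%, and 0 of 26 at P28.5, which allows a share of up to 11.5%, beside 2.02%. Had each member been listed at the share of all genes of its strand and CpG quintile, 12.8 members would be listed by name at P28 and 7.66 at P28.5, where 12 and 6 were. By position these values were 12.5 and 9.68, where 8 and 8 were. At the share of all genes, without regard to strand or CpG, they would be 15.1 and 10.4 by name and 15.5 and 13.3 by position. The part of CpG content in the listing was not tested further.

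**Figure D4:**
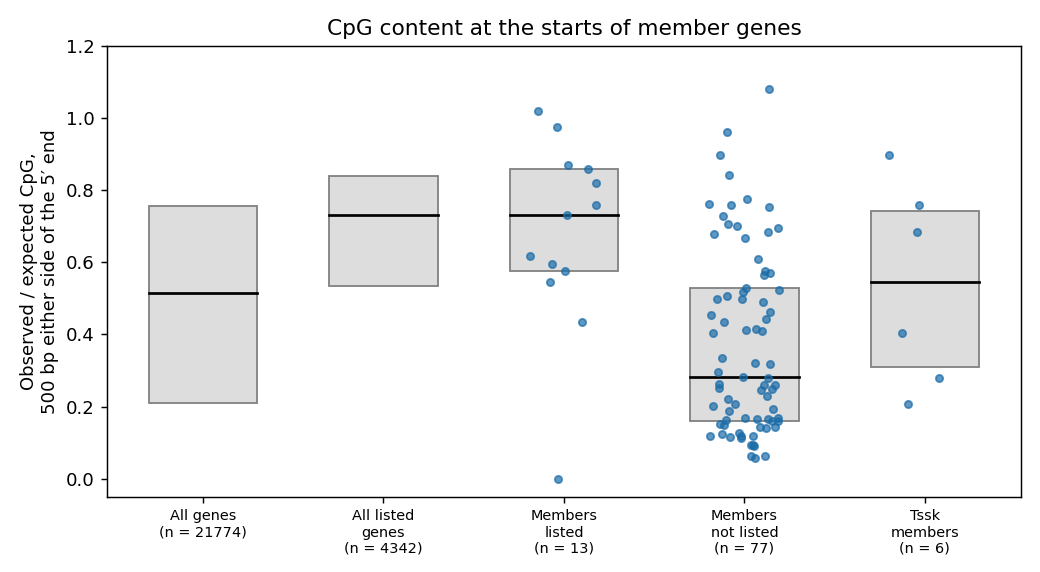
Observed to expected CpG within 500 bp of the outermost 5′ end (y axis) for all genes, all listed genes, listed members, unlisted members and Tssk members (x axis), with boxes from the first to the third quartile, lines at the median and a point per member. The 13 listed members have a median of 0.731 and the 77 unlisted ones 0.283.

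A gene start facing another within 1000 bp on the opposite strand was present in 6 of the 13 listed members (46.2%) and in 7 of the 77 others (9.09%). Over all protein-coding genes the share was 11.7% and over all listed genes 22.4%. The 6 were Spata1, Spata17, Spata33, Spata5, Tex14 and Tsnaxip1. Their neighbours Gng5, Nudt6, Rad51c and Ranbp10 were not listed by name at either age, and all 6 neighbours except Gpatch2, opposite Spata17, and Gng5, opposite Spata1, lie on the minus strand. Among the 13, Spata1, Spata24 and Tex101 were listed by name with no listed position within 2000 bp of their 5′ ends.

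The RefSeq promoter windows, 250 bases before to 50 after a 5′ end, covered 77 members and 17492 protein-coding genes, and motifs were searched on both strands. GGGCGG, the GC box, stood in 9 of the 12 listed members with a window (75.0%), in 18 of 65 unlisted members (27.7%), in 46.3% of all windows and in 64.5% of those of listed genes. Listed here means by name. The 9 included Spata1 and Tex101, whose rows lay 19274 and 15858 bp from their nearest 5′ ends, and Spag7, whose rows equalled Camta2 3′ ends. The MYB letters TAACNG stood in 26 of 77 members (33.8%) and in 20.8% of all windows, and among the listed members in 3 of 12, namely Spag16, Spag7 and Spata6. GTTGCC, part of the X-box of RFX factors, stood in 15 of 77 members (19.5%) and 12.8% of all windows, and among those listed in Spag16, Spata33 and Tsnaxip1. The cAMP response element TGACGTCA, bound by CREM in spermatids, stood in 3 of 77 members (3.9%) and 2.33% of all windows, and in no listed member. Its 5 letters TGACG, which the full element contains, stood in 22.1% of members and 23.8% of all windows. CCAAT stood in 29.9% and 39.2%, and TATAAA in 7.79% and 13.3%. These matches describe letters and not bound sites.

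The Tssk genes encode serine kinases that act in spermatids, and their starts had no listed position within 2000 bp at either age. For Tssk5 the nearest was 5276 bp away at both ages, under the name Mroh1, and for Tssk4 it was 6852 bp away at P28 (Mdp1) and 21208 bp at P28.5 (Gmpr2). Tssk3 and Tssk6 had the same nearest position at both ages, at 29091 bp (Bsdc1) and 69480 bp (Pbx4). Tssk1 and Tssk2, neighbours on chr16, were 349738 and 354172 bp from the nearest one at P28. Tssk3 and Tssk5 lie on the minus strand, where rows exactly on a start are nearly absent from the lists, and the other 4 on the plus strand. Their CpG ratios ran from 0.208 in Tssk5 to 0.898 in Tssk4. The 200 bases upstream of Tssk1, chr16:17894003-17894202, and of Tssk2, chr16:17898437-17898636, both on the plus strand, held 2 CpGs each.
Tssk1: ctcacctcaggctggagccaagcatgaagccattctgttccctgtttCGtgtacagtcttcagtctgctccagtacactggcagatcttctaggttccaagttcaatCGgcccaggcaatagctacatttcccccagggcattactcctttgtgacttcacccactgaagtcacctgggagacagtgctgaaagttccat
Tssk2: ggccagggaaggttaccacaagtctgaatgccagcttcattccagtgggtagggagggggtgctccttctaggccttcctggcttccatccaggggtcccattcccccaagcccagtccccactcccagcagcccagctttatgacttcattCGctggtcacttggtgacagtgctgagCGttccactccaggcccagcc

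Among the members acting in meiosis, germ cell bridges or transposon silencing, Tex14 was listed by name and Tex12, Tex11, Tex15 and Tex19.1 were not. A row named Hmgb1-rs17 nevertheless fell on a Tex15 5′ end at P28.5, and the P28 rows of Tex14 all lay on U3 gene starts. Tex12, a protein of the central element of the synaptonemal complex, lies on the minus strand, and the nearest listed position was 42633 bp away at both ages (Timm8b). Tex19.1, which restrains transposons, was 14128 bp from the nearest one at P28 and 91093 bp at P28.5. Tex11 is X-linked, as are Tsga8 and 7 other members, and none of these 9 was listed. On X the lists held 1 position at P28 and 2 at P28.5, and of all 963 protein-coding genes there 0 and 2 were named, so the absence was shared by nearly the whole chromosome. Of the members linked to the axoneme, Spag16 was listed at P28 and Spag1, Spag6, Spag6l and Spag17 at neither age. At P28 Spag17 was 603904 bp from the nearest position and Spag6l, which lies on the minus strand, 154016 bp. Spag4, a SUN domain protein of head and tail coupling, was 57063 bp away at P28, Spata16, needed for the acrosome, 516395 bp at both ages, and Tsga10, a sperm tail protein, 5908 bp at P28 (Lipt1). Spag11a and Spag11b, relatives of the beta-defensins known from the epididymis, were 67591 and 84719 bp away at P28. Over the 81 autosomal members the median distance was 67591 bp at P28 and 131584 bp at P28.5, and over all autosomal genes it was 77215 and 137817 bp.

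Other genes with like roles were counted the same way, beside the same 16.8% of all genes at P28, 11.6% at P28.5 and 8.48% at both ages, and a listed name is not a measure of expression. Of 36 other spermatid and sperm genes, 5 were listed at P28 (13.9%, 6.08 to 28.7) and 2 at P28.5 (5.56%, 1.54 to 18.1), and the names at either age were Actl7a, Cabyr, Odf2, Ropn1l, Spaca1 and Tnp1. Among 30 other meiotic prophase genes, 7 were listed at each age (23.3%, 11.8 to 40.9) and 4 at both (13.3%, 5.31 to 29.7), the names being Hormad1, Hspa2, Mei4, Meiob, Rec8, Spo11, Stag3, Syce2, Sycp2 and Sycp3. None of 10 partners of Spag6l, Spag16 and Spag17 in the central apparatus was listed, which allows a share of up to 30.0%. Of 9 relatives of Spag4 among SUN domain and head-tail coupling genes, 2 were listed at P28 (22.2%, 6.32 to 54.7) and 3 at P28.5 (33.3%, 12.1 to 64.6), the names being Hook1, Sun1 and Cntln. Cldn11, at P28, was the 1 of 11 Sertoli cell markers listed, and none of 8 Leydig, 4 peritubular or 11 spermatogonia markers was. The Cldn11 listing was by name only, as no row at P28 came within 2000 bp of where Cldn11 starts. The intervals of the members, the spermatid genes and the meiotic genes overlapped at both ages. For the spermatid genes the share of all genes lay within the interval at each age, and for the meiotic genes it lay within it at P28 and just below it at P28.5. For the SUN domain and coupling genes it lay within the interval at P28 and below it at P28.5. These interval comparisons used names alone. By position (2000 bp limit), 7 of the 36 spermatid genes counted at P28 and 4 at P28.5. The 30 meiotic genes gave 7 and 8, and the 9 SUN domain and coupling genes 3 at each age. The central apparatus partners gave none. By position the shares of all genes were 17.3% and 14.8%. No interval was set on these list counts, and the lists were not split by strand.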

How the data were processed

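ARID2 was mapped by CUT&RUN in cells of synchronized P28 and P28.5 testes. The authors trimmed the reads, aligned them to mm10 with Bowtie2, handled alignments with SAMtools and made tracks with deepTools without blocklisted regions or duplicates, scaled by effective library size. They took the log2 ratio to the control without primary antibody, averaged the replicates and clustered TSSs by k-means. The deposited lists hold positions and names, with no signal, so the depth behind a TSS is unknown. How names were given to positions is not given in the sources used here.

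Positions were read as deposited and set beside the ends of 122435 transcripts in the RefSeq annotation of GRCm38.p6, and no position lay past a chromosome end. Symbols were matched as written or by a synonym of 1 gene. The 659 promoter windows compared with the genome sequence had 0 mismatches. A gene was counted by name or, as an alternative, by a listed position within 2000 or 500 bp of a 5′ end. Intervals of shares are Wilson's at 95%, and where no gene was listed the limit was set at 3 counts. The counting was tested on simulated lists with Python 3.11.15.

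The members, lists, roles and genes named were chosen with earlier results of these data known. Named were every member in a list, every member within 2000 bp of a position of another name and a fixed set that included the Tssk genes. Centlein, 1 of 121 genes on the comparison lists, had no match under that symbol and is a synonym of Cntln. The BRG1 libraries, tracks and peaks were not analysed here.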

Additional observations from a re-analysis of the deposited data

How the results depend on the processing

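No paired analysis was possible because the lists come from averaged replicates, and for the same reason no replicate could be left out. The 8 alternatives fixed with the design and 1 added after seeing the data gave 45 values for the 5 results, of which 35 stayed within the interval of the reported share or within 1.5 times the reported count. The shares at P28, at P28.5 and at both ages stayed within their intervals under all 9. These intervals are wide (7.79 to 21.9% at P28), so this shows little. The comparison with all genes did change at P28. With positions of any name within 2000 bp, 17.3% of all genes lay above the interval of the members, 4.57 to 16.6%. For plus-strand genes counted this way, 25.0% lay above 5.86 to 24.7%. The count listed at P28 alone, 7 by name, was 4 with positions of any name within 2000 bp or 500 bp of a 5′ end, 4 with the own name and a position within 2000 bp, and 3 with plus-strand genes alone. The count at P28.5 alone, 1 by name, was 4, 3 and 2 under the first 3 of these and 2 with Spag5 and Spata22 added. The added alternative, plus-strand genes with a listed position within 2000 bp, gave 3 for P28 alone and likewise 3 for P28.5 alone. Counts from plus-strand genes were out of 48 members rather than 90, so they are not on the same base as the counts by name. By construction the positional counts leave out Spata1, Spata24, Tex101 and the P28 rows of Tex14. With 90 members a share near 10% has an interval of more than 10 percentage points, which limits what differences these counts can show.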
